A study of Mus musculus with 9 samples.

Results

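Voltage-gated sodium and calcium channels are built from pore-forming α subunits and the accessory subunits that travel with them, and 36 of their genes were measured in N1E-115 mouse neuroblastoma cells, out of 22180 genes in all. The members were every gene whose annotated symbol follows the pattern of the Scn α and β genes, Cacna1, Cacna2d, Cacnb or Cacng, with 1 probe set per gene, the one with the highest mean over the 9 arrays. Genes of these patterns without a probe set annotated to that gene alone are not analysed here. N1E-115 is an established line of sympathetic origin that stops dividing and extends neurites when serum is withdrawn. All samples came from this 1 line, all were transfected with siRNA at 80 nM, starved of serum overnight and then replated on laminin. They form 3 groups of 3 arrays. Cells with control siRNA were taken at 4 h or 24 h, and cells with Hmgn5 siRNA at 24 h. The Hmgn5 siRNA was a commercial pool against the nucleosome-binding protein Hmgn5, and no array with it at 4 h was analysed here.

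Sodium channel α subunits open quickly on depolarisation and carry the upstroke of the action potential, while their β subunits are small adhesion-like proteins that set gating and surface density. Calcium channel α1 subunits form the L-type, P/Q-type, N-type, R-type and T-type channels, which turn depolarisation into calcium entry for secretion, gene regulation and growth cone steering. The α2δ and β subunits bring the high-voltage-activated channels to the membrane, and T-type channels do not need them. Most γ proteins are now better known for carrying AMPA-type glutamate receptors to the membrane than for their calcium channel role. T-type calcium current has long been recorded in N1E-115 cells.

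Values are log2 expression, and levels of different probe sets cannot be ranked closely against each other, since probes differ in how they hybridise. Places above or below the median of all genes, and levels of marker genes, are therefore rough guides only. No 2 arrays were identical. Array quality weights from limma were 0.198 for control 4 h replicate 2 and 0.789 to 1.74 for the other arrays. The targeted gene was lower on the labelled arrays. Its mean lay among the lowest 33% of genes, where a transcript may be little above the array's background. Hmgn5 read 4.77, 4.66 and 4.69 with control siRNA at 24 h and 3.53, 3.45 and 3.50 with Hmgn5 siRNA, so the signal differed by -1.21 (SE 0.09, limma adjusted p = 0.00367). Dropping control 24 h replicate 1 (adjusted p = 0.0558), Hmgn5 siRNA replicate 2 (0.0552) or Hmgn5 siRNA replicate 3 (0.0506) ended that call, and the exact two-sided permutation p was 0.1, below which a 3 by 3 design cannot go. Separate cultures are not named in the labels, so p-values reflect only how these samples vary, and that variation may be technical.

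Signal was spread widely over the subunits. Of the 36 members 16 had a mean above the median of all genes and 20 lay below it, where a transcript may be little above the array's background, which was not estimated. Among sodium channel α genes, Scn2a, Scn3a, Scn8a and Scn9a had group means between 7.74 and 9.42. Scn1a, Scn7a, Scn10a and Scn11a lay between 3.46 and 4.16 in every group. Of the sodium channel β genes, Scn3b averaged 9.14 over the 9 arrays, above the median of all genes, while Scn2b (4.66) and Scn4b (4.22) were below the median of all genes. The calcium channel α1 genes above the median of all genes were Cacna1a of P/Q-type channels (6.03), Cacna1b of N-type channels (8.78), the L-type gene Cacna1c (9.15) and the T-type genes Cacna1h (7.81) and Cacna1i (7.30). Those below it were the L-type genes Cacna1d (4.10), Cacna1f of the retina (4.53) and Cacna1s of skeletal muscle (4.96), the R-type gene Cacna1e (4.16) and the third T-type gene, Cacna1g (5.07).

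All 4 α2δ genes were below that median, with means of 3.58 for Cacna2d1, 5.30 for Cacna2d2, 4.27 for Cacna2d3 and 4.70 for Cacna2d4. Of the β genes, which chaperone the α1 subunit, Cacnb1 averaged 8.35, Cacnb2 4.93 and Cacnb4 4.39. Of the γ genes, Cacng3 (10.51), Cacng4 (9.36), Cacng5 (6.01), Cacng7 (9.89) and Cacng8 (6.28) were above the median of all genes, and Cacng1 (4.89), Cacng2 (5.73) and Cacng6 (5.54) were below it.

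The first comparison asks what changes between 4 h and 24 h on laminin in control cells. Cacna1i, Scn3a, Scn3b and Cacng3 rose, and no member fell. These 4 of 36 make 11.1%, where 4.34% of all genes were called in either direction and 2.17% were called higher. All 4 were among the 16 members above the median level, and among all genes above that median 4.10% were called higher. Over all genes 481 were higher and 482 lower, a split that became 389 and 625 when each array was centred on its median, and the 4 members were called under both scalings. In bulk RNA a larger share of cells that express a channel and more RNA per cell cannot be told apart.

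Cacna1i, which encodes the slowest gating of the T-type calcium channels, had the largest change of any member. It read 7.10, 6.85 and 6.99 on the control arrays at 4 h and 7.87, 7.97 and 7.91 at 24 h. The 24 h arrays lay close together and all lay well above the 4 h arrays. The rise was 0.94 on the log2 scale with SE 0.14, or 1.91-fold (limma adjusted p = 0.00783), and only 20 of the 22180 genes had a larger rise. It was called under all 17 alternatives, with adjusted p between 0.00122 and 0.0429. The other T-type genes did not pass: Cacna1g differed by -0.06 (adjusted p = 0.755) and Cacna1h by -0.11 (adjusted p = 0.455).

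Scn3a encodes the sodium channel α subunit of embryonic neurons that is largely replaced after birth. It read 8.66, 8.71 and 8.77 at 4 h and 9.31, 9.14 and 9.21 at 24 h, with no overlap. The rise was 0.51 with SE 0.08, or 1.42-fold (limma adjusted p = 0.00864), and it was called under all 17 alternatives (adjusted p 0.00501 to 0.0445). Scn3b encodes a β subunit that associates with α subunits without a covalent bond. It read 8.98, 8.97 and 8.85 at 4 h and 9.21, 9.28 and 9.32 at 24 h, and again the groups did not overlap. Its rise was 0.34 with SE 0.06, or 1.26-fold (limma adjusted p = 0.0177). The Scn3b call was lost without control 24 h replicate 2 (adjusted p = 0.0657) or 3 (0.0685) and without control 4 h replicate 3 (0.0538).

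Cacng3 encodes γ3, a transmembrane AMPA receptor regulatory protein. It read 10.26, 10.06 and 10.30 at 4 h and 10.59, 10.57 and 10.75 at 24 h, without overlap. The rise was 0.43 with SE 0.09, or 1.35-fold (limma adjusted p = 0.0234). Each of the 24 h control arrays was needed for this call, with adjusted p = 0.0696 without replicate 1, 0.061 without replicate 2 and 0.0878 without replicate 3. Scn3b and Cacng3 were also lost when only the 2 groups were fitted (adjusted p = 0.0708 and 0.0758).

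**Figure D1:**
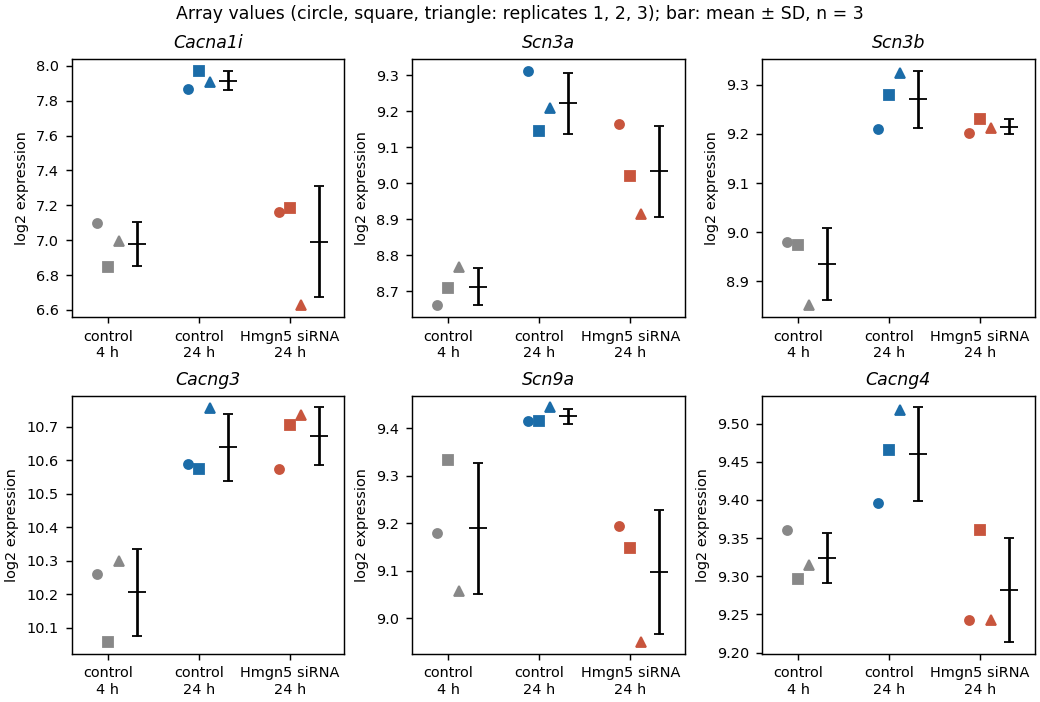
Log2 expression (vertical axes, each with its own range) of 6 subunit genes on the 9 arrays by group, with each group's mean ± SD (n = 3). The upper row and Cacng3 show the genes that rose between 4 h and 24 h in control cells. Cacna1i with Hmgn5 siRNA at 24 h lies between 6.63 and 7.19, below all control arrays at 24 h, with 2 arrays above and 1 below the 4 h range of 6.85 to 7.10.

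The other members moved less over time. Of all 36, 26 had a difference above 0, or 72.2% where 54.9% of genes did. The median difference was 0.05 over members and 0.02 over all genes. With each array centred on its median, 20 members were above 0, and the median over all genes was -0.012. Without control 24 h replicate 2 the member count was also 20, and that median was 0.009. The share of all genes above 0 was not computed under either setting, so these counts of 20 have no background to be read against. With no adjustment 6 members had a p under 0.05, all of them higher. That is 16.7%, against 18% of all genes in either direction and 9.38% higher. The pair beyond the 4 called was Scn9a, a sodium channel of sensory and sympathetic neurons (0.23, limma adjusted p = 0.185), and Cacnb4 (0.30, adjusted p = 0.26). With array weights, which give little weight to control 4 h replicate 2, Scn9a was called as well (0.30, adjusted p = 0.0352). Groups did not overlap for 9 members, 25.0%, against 21.3% of all genes. Those higher were 8 of the 36, or 22.2%, against 11.3% of all genes. Besides the 4 called, they were Scn9a, Cacng4, Cacnb1 and Cacna1e on the higher side and Cacna1h on the lower.

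By family, the sodium channel α genes other than Scn3a and Scn9a differed by -0.13 (Scn8a) to 0.12 (Scn2a) between the times. Scn2b (0.14) and Scn4b (0.02) of the β genes did not pass. The α1 genes other than Cacna1i ranged from -0.11 (Cacna1c) to 0.14 (Cacna1a), and the α2δ genes stayed between 0.00 and 0.05. Cacnb1 (0.21) and Cacnb2 (-0.03) did not pass, nor did the γ genes other than Cacng3, which ranged from -0.03 (Cacng6) to 0.19 (Cacng2). The 95% intervals of the α2δ genes reached no further than -0.22 and 0.30. At these low levels that bounds the array signal, not the transcript.

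**Figure D2:**
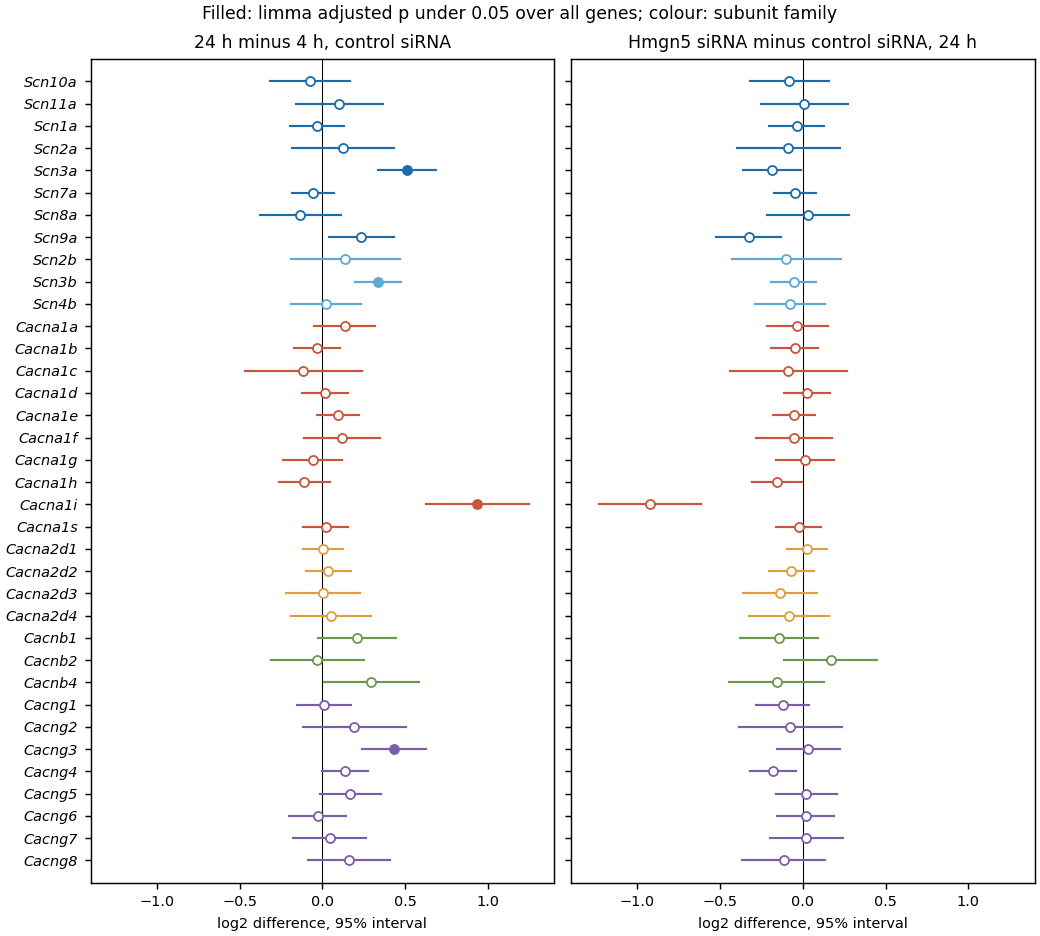
Log2 differences (horizontal axes) with 95% intervals for all 36 members, coloured by family, between 24 h and 4 h in control cells (left) and between Hmgn5 siRNA and control siRNA at 24 h (right). The 4 filled symbols on the left are Scn3a, Scn3b, Cacna1i and Cacng3, and no symbol on the right is filled.

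The second comparison sets Hmgn5 siRNA against control siRNA at 24 h. An effect of lower Hmgn5 and an effect of the siRNA pool that bypasses Hmgn5 cannot be told apart here. No member was called (0 of 36 by limma), and over all genes 3 were, 0.0135%. The member with the smallest p was Cacna1i. It read 7.87, 7.97 and 7.91 with control siRNA and 7.16, 7.19 and 6.63 with Hmgn5 siRNA. All 3 Hmgn5 siRNA arrays lay below all 3 control arrays, and replicate 3 lay lowest. The difference was -0.92 with SE 0.14 and a 95% interval of -1.23 to -0.61, which is a 1.90-fold lower signal. Its unadjusted p of 6.84e-05 was the 7th smallest among 22180 genes, and only 2 genes had a lower difference, but the limma adjusted p was 0.208. Over the 6 arrays an exact permutation test, two-sided, gave p = 0.1, its floor.

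The Cacna1i difference at knockdown kept its sign under all 17 alternatives, at -1.02 to -0.74, and passed under none of them (adjusted p 0.0541 to 0.769). Its smallest adjusted p came with array weights. Without Hmgn5 siRNA replicate 3 the difference was -0.74 (unadjusted p = 1.68e-05, adjusted p = 0.0799). The same 24 h control arrays enter this comparison and the one over time, so its 3 group means are given together. Cacna1i averaged 6.98 ± 0.13 at 4 h, 7.92 ± 0.05 at 24 h with control siRNA and 6.99 ± 0.32 at 24 h with Hmgn5 siRNA (mean ± SD, n = 3 each).

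Scn9a and Cacng4 had the next smallest p at knockdown. Scn9a read 9.42, 9.42 and 9.44 with control siRNA and 9.19, 9.15 and 8.95 with Hmgn5 siRNA, which differ by -0.33 (SE 0.09, limma adjusted p = 0.639). Cacng4, another AMPA receptor regulatory protein, read 9.40, 9.47 and 9.52 against 9.24, 9.36 and 9.24, a difference of -0.18 with SE 0.06 (adjusted p = 0.859). For both genes the groups did not overlap, and neither passed. With no adjustment 5 members had a p under 0.05, and all were lower: these 3, Scn3a (-0.19) and Cacna1h (-0.16). That is 13.9% of members, against 5.25% of all genes in either direction and 2.85% lower. The 5 became 2 when the third array of either 24 h group was dropped, and 3 without control 24 h replicate 1, with each array centred on its median or with only the 2 groups fitted. Groups did not overlap for 3 members, 8.33%, against 12.3% of all genes. All 3 were lower, and 5.62% of all genes were lower without overlap.

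Of the members that rose over time, Scn3b and Cacng3 showed little difference at knockdown. Scn3b read 9.21, 9.28 and 9.32 with control siRNA and 9.20, 9.23 and 9.21 with Hmgn5 siRNA, a difference of -0.06 with a 95% interval of -0.19 to 0.08. Cacng3 read 10.57, 10.71 and 10.74 with Hmgn5 siRNA, a difference of 0.03 with an interval of -0.16 to 0.22. Scn3a read 9.17, 9.02 and 8.91 with Hmgn5 siRNA and overlapped its 24 h controls (-0.19, interval -0.36 to -0.01). Over all members 26 differences were below 0, or 72.2% against 50.8% of all genes, and the median was -0.06 against 0.00 for all genes. Since the 24 h controls enter with opposite sign, this count and that of rises over time are not independent.

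Differences at knockdown among the remaining sodium channel genes lay between -0.10 (Scn2b) and 0.03 (Scn8a). Those of the α1 genes other than Cacna1h and Cacna1i lay between -0.09 (Cacna1c) and 0.03 (Cacna1d), and those of the α2δ genes between -0.14 (Cacna2d3) and 0.03 (Cacna2d1). The β genes differed by -0.15 (Cacnb1), 0.17 (Cacnb2) and -0.16 (Cacnb4). The γ genes other than Cacng3 and Cacng4 ranged from -0.12 (Cacng1 and Cacng8) to 0.02 (Cacng5, Cacng6 and Cacng7). None of these passed.

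**Figure D3:**
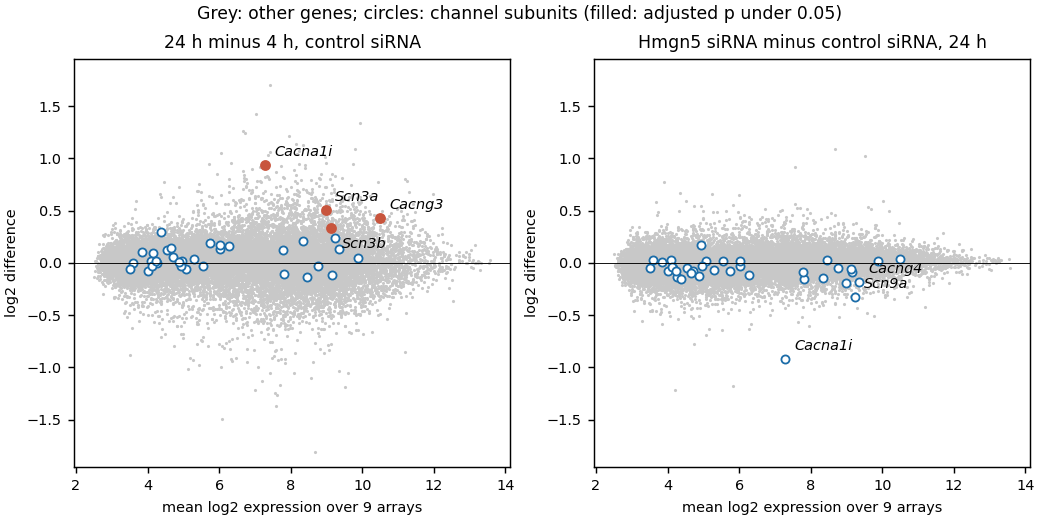
Log2 difference (vertical axes) against mean log2 expression (horizontal axes) for 22180 genes, over time in control cells (left) and between Hmgn5 siRNA and control siRNA (right), with the 36 channel subunits as circles. Cacna1i stands at 0.94 on the left, where it is filled, and at -0.92 on the right, where it is open.

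The third comparison sets Hmgn5 siRNA at 24 h against control siRNA at 4 h, so that siRNA and time differ together, and it shares arrays with both others. Cacng3 and Scn3b were higher and no member was lower, 2 of 36 or 5.56% against 2.57% of all genes called and 1.52% called higher. Cacng3 differed by 0.47 with SE 0.09 (limma adjusted p = 0.0242) and Scn3b by 0.28 with SE 0.06 (adjusted p = 0.048). The Cacng3 call was lost without Hmgn5 siRNA replicate 1 (0.51, adjusted p = 0.0579), 2 (0.45, 0.1) or 3 (0.43, 0.0951). The Scn3b call held without control 4 h replicate 2 and was lost without any 1 of the other 8 arrays, with adjusted p up to 0.154. Scn3a differed by 0.32 (adjusted p = 0.0684) and passed with array weights (adjusted p = 0.0317) or without the dim genes (0.0481).

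Cacna1i differed by 0.01 in this comparison, with a 95% interval of -0.30 to 0.32 (limma adjusted p = 0.98). Cacna1h, its T-type relative, read 7.97, 7.91 and 7.92 at 4 h, 7.81, 7.79 and 7.88 with control siRNA at 24 h and 7.62, 7.79 and 7.60 with Hmgn5 siRNA. Both 24 h groups lay below the 4 h group. The difference between Hmgn5 siRNA and 4 h was -0.27 (adjusted p = 0.0788), which passed with array weights only (adjusted p = 0.0413). Groups did not overlap for 5 members, 13.9% against 18.9% of all genes: Cacng3, Scn3b and Scn3a were higher, and Cacna1h and Cacng1 (-0.11) were lower.

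**Figure D4:**
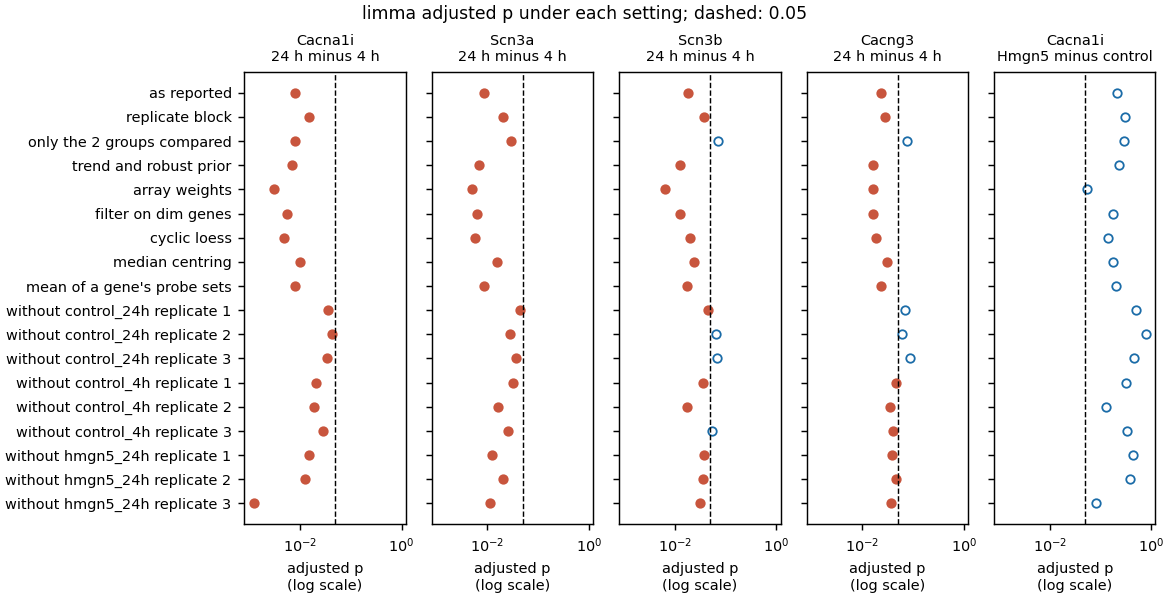
Limma adjusted p (horizontal axes, log scale) of 5 differences under the reported fit and 17 alternatives, with 0.05 as a dashed line and filled points below it. Cacna1i and Scn3a over time stay below 0.05 throughout, Scn3b and Cacng3 cross it in 4 settings each, and Cacna1i at knockdown stays above it.

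Proteins that bind or modulate these channels were described from a separate list. Of 26 measured channel partners 2 rose and 1 fell over time, where 4.34% of all genes were called, and 9 had an unadjusted p under 0.05, where 18% of all genes did. The list had a median of 0.02, equal to that of all genes at this rounding. Fgf11, a fibroblast growth factor homologue of the group that binds sodium channel tails, rose by 0.81 with SE 0.12 (limma adjusted p = 0.00832), and was called under all 17 alternatives. Rimbp2, which tethers calcium channels to release sites, rose by 0.41 (adjusted p = 0.0216). It no longer passed when control 4 h replicate 3 or any of the 24 h controls was dropped (adjusted p up to 0.0866). Stac, an adaptor of L-type channels, fell by 0.31 (adjusted p = 0.0341), which passed only without control 4 h replicate 2 among the fits that drop an array (up to 0.123). At knockdown none of the 26 passed, with Stac3 (0.27) and Unc80 (-0.17), a subunit of the sodium leak channel complex, having the smallest p. Between Hmgn5 siRNA at 24 h and 4 h, Fgf11 (0.59, adjusted p = 0.0388) and the tetraspanin gene Tspan13 (0.30, adjusted p = 0.0469) were higher. Fgf11 then passed only when the third array of the 4 h controls or of the Hmgn5 siRNA group was dropped, among the 9 fits that leave out an array (up to 0.12), and Tspan13 only without control 4 h replicate 2 (up to 0.159).

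Genes that store, pump or read calcium and genes of repression by REST had 1 call over time or none in each list, to be read against the 4.34% of all genes called. Of 23 calcium store, pump and exchanger genes 1 fell over time, Mcu, the pore of the mitochondrial calcium uniporter (-0.38, limma adjusted p = 0.0344), and the list's median was -0.02. Among the fits that drop an array Mcu passed only without control 4 h replicate 3 (adjusted p up to 0.126). None of 20 calcium sensor and signalling genes passed (median -0.02), with the kinase gene Camk4 (0.50, adjusted p = 0.0646) and Crtc2 (-0.19) having the smallest p. Of 10 genes of repression by REST, a silencer of neuronal genes that include sodium channels, 1 fell, Rcor3 (-0.39, adjusted p = 0.0469, median of the list 0.00). That call held when control 24 h replicate 3 or replicate 2 of the Hmgn5 siRNA group was dropped, and was lost without any 1 of the other arrays (up to 0.16). Rest itself differed by -0.09 over time and by 0.10 at knockdown. At knockdown these 3 lists had no call, medians of 0.00, -0.02 and 0.02, and as smallest p those of Orai2 (-0.12) and Atp2b2 (-0.16), Nfatc1 (-0.13) and Ppp3ca (-0.10), and Hdac1 (0.24) and Rest. None of their genes passed between Hmgn5 siRNA at 24 h and 4 h either.

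**Figure D5:**
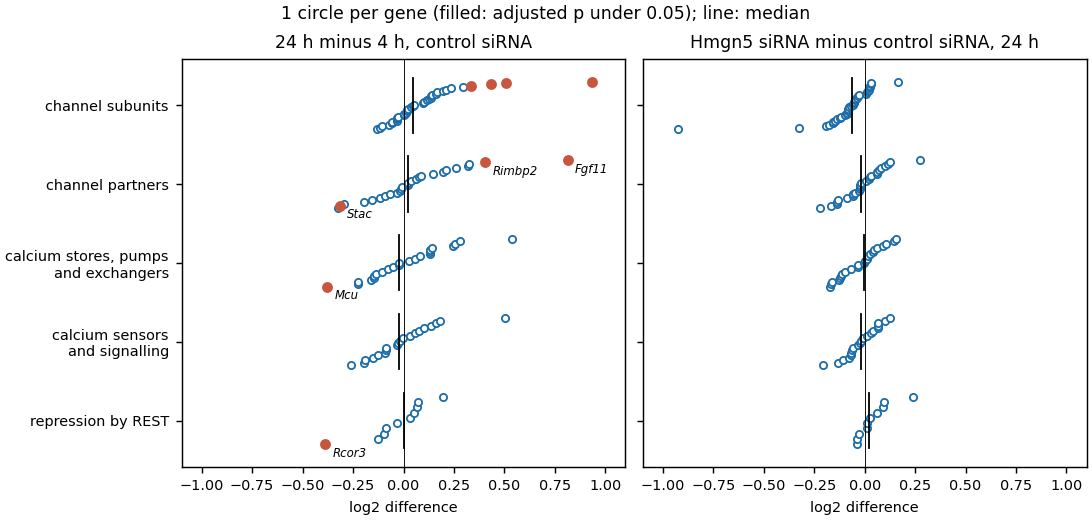
Log2 differences (horizontal axes) of the 36 subunits and of the genes in 4 related lists, 1 circle per gene with the list's median as a line, over time (left) and between Hmgn5 siRNA and control siRNA (right). Filled circles passed, 4 of them subunits; on the right the Cacna1i circle at -0.92 lies apart from all others.

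The labelled cell type was checked against marker genes. All 10 measured sympathetic markers were above the median of all genes, and their mean level per array was 10.42 to 10.68 at 4 h, 10.81 to 10.88 in control cells at 24 h and 10.80 to 10.84 with Hmgn5 siRNA. Dbh, which makes noradrenaline (0.80, limma adjusted p = 0.00534), and Th, which makes the catecholamine precursor (0.53, adjusted p = 0.0188), rose over time. They were the 2 of the 10 that were called, where 4.34% of all genes were called. Of the 10, 8 differed above 0 and 2 below, where 54.9% of all genes were above 0. The median was 0.19, against 0.02 over all genes. With no adjustment 7 of the 10 had a limma p under 0.05, where 18% of all genes did. Th did not pass when a 24 h control array was dropped (adjusted p up to 0.0774). At knockdown 6 of the 10 markers differed above 0 and 4 below, with a median of 0.00, and none passed. Those differences ran from -0.42 (Dbh, adjusted p = 0.595) to 0.34. Skeletal muscle markers, where Cacna1s and Cacng1 are chiefly used, had mean levels of 5.68 to 5.75 at 4 h and 5.56 to 5.69 over both 24 h groups, and 1 of the 8 fell over time, the intermediate filament gene Des (-0.92, adjusted p = 0.00575). Between Hmgn5 siRNA at 24 h and control siRNA at 4 h, Th was higher (0.46, limma adjusted p = 0.0439) and Des lower (-0.81, adjusted p = 0.0133). Of all genes 2.57% were called there. Th did not pass when any 1 array was left out (adjusted p up to 0.0987). Des did not pass without Hmgn5 siRNA replicate 2 (adjusted p = 0.0568). Mean levels over cardiac muscle, glia, fibroblast, leukocyte and endothelium markers lay between 4.40 and 5.27 on all arrays, and none of the 23 measured passed. The part that these markers have in the channel results was not tested.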

How the data were processed

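Expression was measured on 9 Affymetrix whole-transcript arrays, 3 per group. Each probe set has a deposited log2 value, made with oligo and RMA per the submitters' processing notes; versions and the genome build are not given in the sources used here. Quantile normalization, part of RMA, hides a change shared by most genes. Of 41345 probe sets 23521 had 1 gene symbol, which gave 22180 genes. Groups came from the sample titles. limma 3.58.1 in R 4.3.3 fitted all 9 arrays with group means and eBayes, with calls at 0.05 after Benjamini-Hochberg adjustment across all 22180 genes. The members and gene lists were chosen with earlier results of these data known. Named genes are every member (array values for members called or among the 3 smallest p of a comparison; Cacna1h was added after its values were seen) and, per list, called genes or the 2 smallest p. The number of arrays limits precision. The limma fit was run on simulated arrays with independent noise for each gene and no outlying array, unlike the real arrays. Replicate block, other fits, scalings, probe-set choices and leaving out each array were alternatives. Promoter sequences are not reported here.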

Additional observations from a re-analysis of the deposited data

How the results depend on the processing

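Each result was recomputed under 17 alternatives, 9 of which leave out 1 array. Hmgn5 had 16, since the filter on dim genes drops it. The count of members called over time, 4, was 2 when only the 2 groups compared were fitted and 2 to 4 when an array was left out, lowest without control 24 h replicate 2 or 3. It was 5 with array weights and 4 under the 6 remaining settings, and Cacna1i and Scn3a were called in all of them. The count at knockdown was 0 in every setting. The count between Hmgn5 siRNA at 24 h and control siRNA at 4 h, 2, was 0 with only the 2 groups. It was 1 with cyclic loess, 1 with median centring and 1 with the replicate block. It was 3 with the filter on dim genes, all higher, and 4 with array weights, 3 higher and 1 lower (Cacna1h). When an array was left out it was 0 to 2, with 0 without any 1 of the Hmgn5 siRNA arrays. The cause was not tested. Over all genes the calls over time, 481 higher and 482 lower, became 161 and 119 with the 2 groups only, 807 and 878 with array weights, and 178 to 586 higher and 132 to 652 lower with an array left out. At knockdown, 2 higher and 1 lower became 0 to 6 and 0 to 2. In the third comparison, 338 higher and 231 lower became 75 and 38 with the 2 groups only, 697 and 529 with array weights, and 95 to 445 and 60 to 339 with an array left out. No difference of a named gene that was called reversed. The replicate numbers were not taken as pairing the samples, since the titles number the samples without naming a pairing. Same-numbered arrays' deviations correlated at 0.089 to 0.285 between the 24 h groups and at 0.00851 to 0.0921 elsewhere. All 6 arrays of the 24 h groups, and of the control groups, correlated best with their own number. Between control 4 h and Hmgn5 siRNA 4 of 6 did. That is a hint of pairing from the data only, and the replicate block allows for it. With the replicate block the members called were 4 over time, 0 at knockdown and 1 (Cacng3) in the third comparison, and over all genes 451 rose and 442 fell over time. The block also ended the calls of Mcu over time (adjusted p = 0.0669) and, in the third comparison, of Scn3b (0.084), Fgf11 (0.058) and Tspan13 (0.0848). Fitting only the 2 groups ended those of Rimbp2 (0.0758), Stac (0.092), Mcu (0.106) and Rcor3 (0.0944) over time. In the third comparison it ended those of Fgf11 (0.139), Tspan13 (0.14), Th (0.147) and Des (0.0696). Median centring ended those of Fgf11 (0.0511) and Tspan13 (0.0554) there, and cyclic loess those of Tspan13 there (0.0671) and of Rcor3 over time (0.0517).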

Other observations

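Other probe sets of the members entered no comparison. The lower probe sets of Cacng2, Cacnb2 and Cacnb4 averaged 4.68, 4.65 and 3.98 and differed over time by 0.04, -0.03 and 0.08, and at knockdown by -0.01, -0.04 and -0.07. A probe set annotated to both Scn9a and Gm13629 averaged 4.73, and its differences had the opposite sign to those of the Scn9a probe set, at -0.12 over time (SE 0.05) and 0.11 at knockdown (SE 0.05), with unadjusted limma p-values of 0.0551 and 0.0783. Which of the 2 genes that signal reports was not tested.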
